A study of Homo sapiens with 6 samples.

Results

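Transcripts of 10 genes of follistatin, activin and BMP signalling were measured in RBE cells, an established human cholangiocarcinoma (bile duct cancer) line: FST, INHBA, INHBB, BMP4, ID1, ID2, ID3, SMAD6, SMAD7 and BAMBI. They were taken by symbol from the 16200 genes of the deposited table, and all 10 were found and passed the filter on low counts. The list had been drawn up with the difference between the groups already known, so the differences of these genes are given below as a description, with no test. Poly(A)-enriched RNA was sequenced in 6 libraries: 3 of the reference group, labelled NC, and 3 of a group named sgKCNQ3 after a guide RNA for KCNQ3, a voltage-gated potassium channel subunit gene. All libraries came from the same cell line, with no further treatment in the labels. The sources used here do not state the enzyme used with the guide, or whether the cells were a single clone. The labels do not say that the libraries came from separate cultures, so the errors and tests cover the spread among these libraries alone, which may be technical.

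Activins are dimers of inhibin beta subunits. INHBA encodes the subunit of activin A and INHBB that of activin B, and both signal through serine/threonine kinase receptors to SMAD2 and SMAD3, while BMP4 signals through related receptors to SMAD1, SMAD5 and SMAD9. Follistatin, the product of FST and a protein known to be secreted by the liver, binds activins and keeps them from their receptors. The ID genes are classic BMP target genes whose products bind E proteins, a class of basic helix-loop-helix transcription factors, and keep them off DNA. SMAD6, SMAD7 and the kinase-less decoy receptor BAMBI are inhibitors of the pathway that its own signal induces.

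The promoters of FST and INHBA, the members lower in sgKCNQ3, and of ID1, ID3 and BAMBI, from the BMP target and inhibitor genes, are shown to place the short motifs that SMADs and other factors are known to bind. RefSeq promoters (GRCh38.p14, 250 bases before to 50 bases after an annotated start) were matched for 10 of 10 genes, 14 in all since BMP4 and SMAD7 have 3 each. Those shown lie at chr5:53480379-53480678 (FST, plus strand), chr7:41703041-41703340 (INHBA, minus strand), chr20:31605039-31605338 (ID1, plus strand), chr1:23559452-23559751 (ID3, minus strand) and chr10:28677271-28677570 (BAMBI, plus strand). Capitals mark exact matches on either strand, as read on the printed strand, to any of 5 short motifs. They are GGCGCC, a GC-rich element bound by SMADs of the BMP branch, and CAGAC, the core of the SMAD box. The AP-1 motif was searched as TGANTCA, the cAMP response element as TGACGTCA, and the TATA box by the letters TATAAA.
FST: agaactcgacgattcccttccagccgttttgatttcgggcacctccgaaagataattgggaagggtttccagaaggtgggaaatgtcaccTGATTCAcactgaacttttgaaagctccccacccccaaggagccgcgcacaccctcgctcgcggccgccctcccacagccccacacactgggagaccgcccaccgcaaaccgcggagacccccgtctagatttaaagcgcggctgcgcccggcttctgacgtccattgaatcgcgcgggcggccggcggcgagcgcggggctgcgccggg
INHBA: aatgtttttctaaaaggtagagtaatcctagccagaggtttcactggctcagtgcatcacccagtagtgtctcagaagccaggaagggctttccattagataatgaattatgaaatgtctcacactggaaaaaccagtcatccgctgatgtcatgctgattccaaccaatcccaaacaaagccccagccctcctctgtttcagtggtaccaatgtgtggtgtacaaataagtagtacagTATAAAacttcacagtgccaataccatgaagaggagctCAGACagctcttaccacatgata
ID1: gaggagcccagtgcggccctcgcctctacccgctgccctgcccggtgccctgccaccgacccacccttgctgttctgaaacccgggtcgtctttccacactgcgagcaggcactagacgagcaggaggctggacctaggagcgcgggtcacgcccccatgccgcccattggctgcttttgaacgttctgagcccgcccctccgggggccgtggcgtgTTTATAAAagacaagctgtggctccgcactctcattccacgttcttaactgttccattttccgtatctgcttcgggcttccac
ID3: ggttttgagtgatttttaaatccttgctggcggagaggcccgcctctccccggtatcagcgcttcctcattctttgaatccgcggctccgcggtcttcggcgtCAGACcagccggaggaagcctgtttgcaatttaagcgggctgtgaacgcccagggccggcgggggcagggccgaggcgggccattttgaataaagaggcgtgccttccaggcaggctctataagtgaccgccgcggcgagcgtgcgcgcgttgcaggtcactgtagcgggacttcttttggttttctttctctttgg
BAMBI: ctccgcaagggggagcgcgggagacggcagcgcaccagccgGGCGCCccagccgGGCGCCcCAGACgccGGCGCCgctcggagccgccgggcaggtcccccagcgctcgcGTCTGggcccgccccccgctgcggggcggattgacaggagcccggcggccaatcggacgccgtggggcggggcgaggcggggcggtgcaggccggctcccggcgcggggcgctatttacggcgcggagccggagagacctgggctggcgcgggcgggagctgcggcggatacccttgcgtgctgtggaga

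The FST promoter held the only AP-1 match among the 14, its first base 160 bases before the RefSeq start. In the whole table of 35116 promoters, 7.71% held such a match. In GENCODE release 29 the FST gene opens at 53480409, before this match, so the match lies inside the annotated gene. The INHBA and ID3 windows shown also lie inside their annotated genes. The BAMBI promoter held 3 GGCGCC matches and 2 SMAD boxes. GGCGCC was also present in the INHBB promoter (3 matches) and in 1 of the BMP4 promoters (2 matches), which made 3 of 14, against 19.2% of all promoters. A SMAD box stood in 8 of 14, against 45.3%, INHBA, ID3, BAMBI and at least 1 promoter each of BMP4 and SMAD7 among them. TATAAA stood in 3 of 14, against 11.5%, and in ID1 it was matched on both strands with the matches overlapping. GGGCGG (SP1), left in lower case, stood in 8 of 14, against 45.0%, with 10 partly overlapping matches in INHBB. The cAMP response element and CCGGAAG (ETS) had no match in these 14 windows, and stood in 1.85% and 10.3% of all promoters. A match is a description of letters, not a site of binding.

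Total estimated counts were 15601283 to 16089500 per library. KCNQ3 itself held 256, 257 and 252 counts in NC and 222, 206 and 191 in sgKCNQ3, a modest reduction with no overlap (log2 fold change -0.33, SE 0.0841, edgeR quasi-likelihood adjusted p 0.00446). KCNQ3 was not called by limma on log2(TPM + 1) (adjusted p 0.151) or log2(TPM + 0.1) (0.174). Of 12565 genes tested, 29.1% were called at an adjusted p of 0.05, 14% higher and 15.1% lower. Of all called genes, those higher in sgKCNQ3 made up 48.2% with TMM scaling, 56.8% with upper quartile scaling, 64.5% with library size alone, 80.8% on deposited TPM and 39.7% with transcript length and GC trends removed. All 6 biliary epithelial markers examined were expressed, at a summed 3992 to 4085 TPM (a level scaled to transcript length and library total) in NC and 4612 to 4732 in sgKCNQ3. The 3 hepatocyte markers summed to at most 2.13 TPM, the 3 endothelial markers to at most 0.38, and the 2 fibroblast markers found (of 3 listed) to at most 2.75. The leukocyte sum of 3 markers was 93.5 to 99.7 TPM in NC and 79.4 to 86.7 in sgKCNQ3, nearly all CD68. The leukocyte markers PTPRC and CD3E stayed at or below 0.09 TPM. The part of these shifts in the differences below was not tested.

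FST and INHBA were lower in the sgKCNQ3 libraries, and INHBB, BMP4, ID1, ID2, SMAD6 and BAMBI were higher. ID3 and SMAD7 overlapped between the groups. In bulk RNA, fewer cells that express a gene and less of its RNA per cell cannot be told apart. Library-scaled counts (CPM) of 8 of the 10 genes did not overlap between the groups, 6 higher and 2 lower. Over all tested genes the share without overlap was 41.7% (20.4% higher, 21.3% lower), and since this contrast chose the members, nothing is read from their count. The median log2 fold change of the 10 was 0.20, against -0.007 over all tested genes, and for the same reason nothing is read from it.

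**Figure D1:**
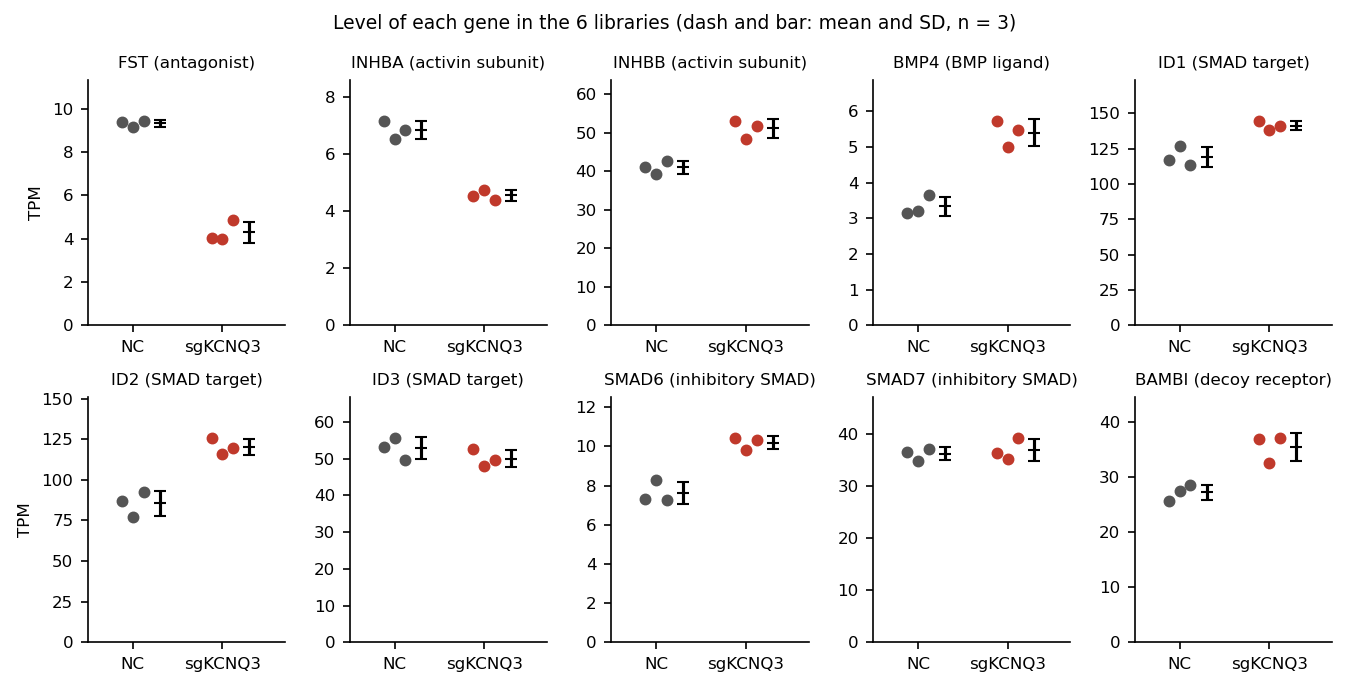
Level of each of the 10 genes in TPM (vertical axes from 0) in the 3 NC libraries (grey) and the 3 sgKCNQ3 libraries (red), with the mean and SD beside each group. FST and INHBA lie lower in sgKCNQ3, ID3 and SMAD7 overlap, and the other genes lie higher.

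In the NC libraries the levels in TPM spanned from ID1 at the top, at 119 ± 7.02 (SD, n = 3), to BMP4 at the bottom, at 3.33 ± 0.270. ID2 followed ID1, at 85.6 ± 7.72, then ID3 at 52.8 ± 2.99, INHBB at 41.0 ± 1.71, SMAD7 at 36.1 ± 1.22 and BAMBI at 27.3 ± 1.43. The last 4 lay far below these, with FST at 9.31 ± 0.146, SMAD6 at 7.62 ± 0.556 and INHBA at 6.83 ± 0.320 above BMP4. No 2 neighbours in this order overlapped across the 3 NC libraries in TPM. In deposited FPKM, another per-length unit, SMAD6 (4.77 to 5.44) and INHBA (4.29 to 4.78) did overlap, so their order is not settled. Activin B subunit mRNA was thus more abundant than that of activin A in every NC library, and follistatin mRNA lay between them.

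FST, the gene of the activin antagonist follistatin, was the member with the largest difference. FST (Entrez gene ID 10468) lies on chromosome 5, plus strand, at 53480409 to 53487134 in GRCh38 (GENCODE release 29). It held 9.36, 9.15 and 9.43 TPM in the NC libraries (replicates 1 to 3 in order, here and below) and 4.04, 3.97 and 4.85 in the sgKCNQ3 libraries. Every sgKCNQ3 library was well under every NC library, and sgKCNQ3 replicate 3 was the highest of its group. Behind these levels stood 204, 204 and 207 counts for NC and 85, 76 and 105 for sgKCNQ3. In the fit of all genes the log2 fold change of FST was -1.23 (SE 0.110), a 2.35-fold lower level, at percentile 0.0955 of all tested genes. Without sgKCNQ3 replicate 3 it was -1.36. The FST transcript taken for length was 2538 bases, against a median of 3482 over tested genes, and removal of length and GC trends left its log2 fold change at -1.22.

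Across the 6 libraries, the genes whose log2 CPM ran most closely with that of FST were GATD1 (Pearson's r 0.998), DAP (0.998) and SERTAD1 (0.997), out of 10907 genes averaging at least 2 in log2 CPM. The 6 libraries share 2 groups, so any gene lower in sgKCNQ3 with little spread scores high on this measure. Their own differences were smaller than that of FST, with log2 fold changes of -0.21 for GATD1, -0.26 for DAP and -0.41 for SERTAD1.

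The activin subunit genes lay on opposite sides. INHBA, on chromosome 7 (41667168 to 41705834, minus strand), held 7.15, 6.51 and 6.83 TPM in NC and 4.53, 4.74 and 4.37 in sgKCNQ3. Its groups did not overlap, and the log2 fold change was -0.67 (SE 0.0743), a 1.60-fold lower level. INHBB, on chromosome 2 (120346143 to 120351808, plus strand), held 41.0, 39.3 and 42.7 TPM in NC and 53.1, 48.4 and 51.9 in sgKCNQ3. Again the groups did not overlap, here with sgKCNQ3 higher, at a log2 fold change of 0.23 (SE 0.0460). The INHBA gene overlaps an antisense gene, INHBA-AS1, on the other strand. The sources used here do not say whether counting used strand, so reads of the pair cannot be told apart.

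Because the subunit genes differed in opposite directions, the INHBB to INHBA ratio of TPM values within a library came to 5.74, 6.04 and 6.25 for NC against 11.7, 10.2 and 11.9 for sgKCNQ3. The summed level of INHBA and INHBB was 47.8 ± 1.89 TPM (SD, n = 3) for NC and 55.7 ± 2.30 for sgKCNQ3. The added INHBB outweighed the missing INHBA. INHBE, a further activin subunit gene, was left out of this sum and averaged 9.17 TPM in NC and 12.3 in sgKCNQ3. The ratio of FST to the sum of INHBA and INHBB came to 0.194, 0.200 and 0.190 for NC against 0.0701, 0.0747 and 0.0863 for sgKCNQ3. There was thus less follistatin mRNA relative to summed INHBA and INHBB mRNA in each sgKCNQ3 library than in any NC library. Protein was not analysed here, and ratios of mRNA are not ratios of secreted protein.

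BMP4, the BMP ligand gene of the list, was the weakest member and had the largest difference upward. It lies on chromosome 14 (53949736 to 53958761, minus strand). It held 3.15, 3.20 and 3.64 TPM in NC and 5.73, 4.99 and 5.48 in sgKCNQ3. The groups did not overlap. The values rest on 51, 54 and 53 counts in NC and 87, 74 and 79 in sgKCNQ3. Its log2 fold change of 0.58 has the widest SE of the 10 genes, 0.143.

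ID1 and ID2 were higher in sgKCNQ3 while ID3 was not. ID1, on chromosome 20 (31605283 to 31606515, plus strand), held 117, 127 and 113 TPM in NC and 145, 138 and 141 in sgKCNQ3. Its groups came close but did not overlap, with NC replicate 2 the highest of its group. ID2, on chromosome 2 (8678845 to 8684453, plus strand), held 86.8, 77.4 and 92.7 TPM in NC and 126, 116 and 119.6 in sgKCNQ3. The lowest sgKCNQ3 library of ID2 stood clear of the highest NC library. ID2 overlaps the antisense gene ID2-AS1, with the same limit on strand as for INHBA. ID3, on chromosome 1 (23557918 to 23559794, minus strand), held 53.1, 55.6 and 49.7 TPM in NC and 52.6, 48.0 and 49.6 in sgKCNQ3, with the groups interleaved.

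The log2 fold changes were 0.17 (SE 0.0532) for ID1, 0.41 (SE 0.0549) for ID2 and -0.15 (SE 0.0727) for ID3. With length and GC trends removed, the log2 fold change was 0.26 for ID1 and -0.06 for ID3, each moving upward. Within a library the ID2 to ID3 ratio of TPM came to 1.63, 1.39 and 1.87 for NC against 2.39, 2.42 and 2.41 for sgKCNQ3, so the makeup of the ID pool differed as well as its size. The summed level of ID1, ID2 and ID3 was 257 ± 2.17 TPM for NC and 312 ± 10.5 for sgKCNQ3. The NC sum varied little although ID1 and ID2 each varied more, and NC replicate 2 was the highest for ID1 and the lowest for ID2.

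Of the inhibitory SMAD genes, SMAD6 was higher in sgKCNQ3 and SMAD7 overlapped. SMAD6, which acts mainly against BMP receptors, lies on chromosome 15 (66702228 to 66782848, plus strand). It held 7.34, 8.26 and 7.26 TPM in NC and 10.4, 9.82 and 10.3 in sgKCNQ3, a log2 fold change of 0.33 (SE 0.0711) with no overlap. A further annotated gene, of sense intronic type, lies within SMAD6 on the same strand, so its reads could not be told apart by strand. SMAD7, which acts on activin and TGF-beta receptors as well, lies on chromosome 18 (48919853 to 48952052, minus strand). It held 36.5, 34.7 and 37.1 TPM in NC and 36.2, 35.2 and 39.1 in sgKCNQ3. Its log2 fold change was -0.04 (SE 0.0515) on TMM-scaled counts and 0.03 on log2(TPM + 1), so it has no settled direction. SMAD7 nevertheless remained the more abundant of the pair, with a SMAD7 to SMAD6 ratio of 4.76 ± 0.487 in NC and 3.62 ± 0.159 in sgKCNQ3.

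BAMBI, the decoy receptor gene, lies on chromosome 10 (28677342 to 28682939, plus strand). It held 25.7, 27.5 and 28.5 TPM in NC and 36.9, 32.6 and 37.1 in sgKCNQ3. Each sgKCNQ3 library was above each NC library, with sgKCNQ3 replicate 2 the nearest to NC, and the log2 fold change was 0.30 (SE 0.0668). In sgKCNQ3 replicate 2, all members except INHBA were at the lowest TPM of their group, those higher and FST, which was lower, alike. This depends on the unit: in CPM, sgKCNQ3 replicate 2 was not the lowest of its group for ID1, ID2, ID3 or SMAD7.

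**Figure D2:**
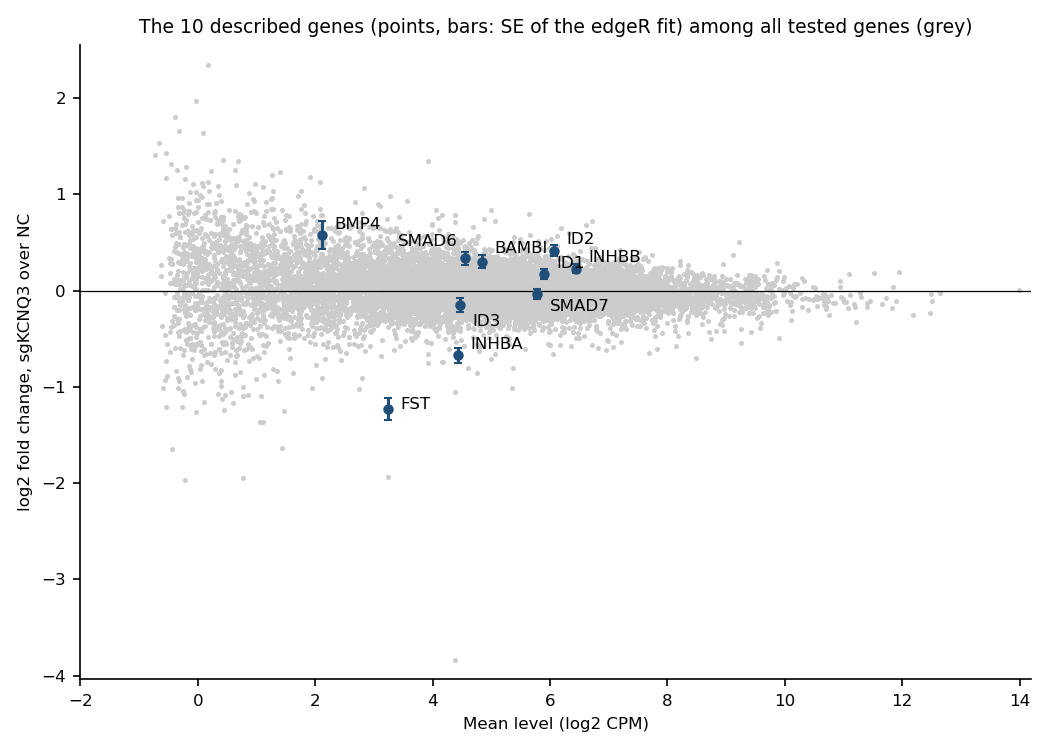
log2 fold change of sgKCNQ3 over NC (vertical axis, bars SE of the edgeR fit) against mean level in log2 CPM (horizontal axis) for the 10 genes, over all 12565 tested genes in grey. FST stands at -1.23 and INHBA at -0.67, below most genes of their level, while ID1, ID3 and SMAD7 lie within the main band.

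The rest of the pathway was read from 7 lists by role, 99 genes without the 10 above, of which 83 were in the table and 58 could be tested. Of these, 16 were called higher and 10 lower in sgKCNQ3, or 44.8%, against 29.1% of all tested genes, with a median log2 fold change of 0.08 against -0.007. The lists too were chosen with earlier results of these data known, so nothing is read from this share or median. Unless another method or scale is named, each adjusted p below comes from edgeR's quasi-likelihood test over all 12565 genes. The log2 fold changes come from the same fit of TMM-scaled counts. Levels beside them are in TPM, so the fold changes need not match the ratio of the levels. With length and GC trends removed, 9 were called higher and 11 lower. Without sgKCNQ3 replicate 1 the number called lower was 6.

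Among the other ligands, GDF15, a distant family member induced by cell stress, and INHBE, a further activin subunit gene known from the liver, were called. GDF15 fell from 944 ± 14.7 to 746 ± 50.7 TPM (log2 fold change -0.42, adjusted p 1.30e-08), and INHBE rose from 9.17 ± 0.681 to 12.3 ± 0.761 TPM (0.34, adjusted p 0.00356). BMP7, called lower, lay under 1 TPM in all 6 libraries and overlapped between groups (-0.88, adjusted p 0.0378). Its call was lost without NC replicate 2 (adjusted p 0.127), NC replicate 3 (0.159) or sgKCNQ3 replicate 2 (0.204). It was also lost in DESeq2 (0.143) and on log2(TPM + 1) (-0.29, limma adjusted p 0.133) and log2(TPM + 0.1) (0.145). The other 7 tested ligands passed no threshold, among them BMP6 at 12.3 ± 0.136 TPM in NC and 12.4 ± 0.180 in sgKCNQ3. INHA, the alpha subunit that turns activins into inhibins, was too low to test. It held 0.28, 0.45 and 0.09 TPM in NC and 0.66, 0.74 and 0.76 in sgKCNQ3, and nothing is read from levels this low.

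Of 7 tested secreted antagonists beside FST, 4 were called lower and 1 higher, with a median log2 fold change of -0.26. FSTL3, a follistatin-like protein that also binds activins, fell from 123 ± 5.41 to 105 ± 5.68 TPM (log2 fold change -0.32, adjusted p 6.20e-06). Its level was far above that of FST in every library. The BMP antagonist genes NOG (-0.38, adjusted p 0.00706), NBL1 (-0.26, adjusted p 0.00994) and BMPER (-0.54, adjusted p 0.00510) fell as well. CRIM1, which encodes a transmembrane BMP-binding protein, rose (0.12, adjusted p 0.0146). NOG was not called without sgKCNQ3 replicate 1 (adjusted p 0.0643), NBL1 without sgKCNQ3 replicate 2 (0.0845), and CRIM1 without NC replicate 2 (0.0769) or NC replicate 3 (0.0558). In DESeq2, NOG (adjusted p 0.0558), NBL1 (0.0527) and BMPER (0.0624) were not called, so that of these 4 FSTL3 alone kept its call. By limma, NOG was not called on log2(TPM + 1) (adjusted p 0.0501), BMPER not on log2(TPM + 0.1) (0.0534), and NBL1 on neither scale (0.140 and 0.138). Removal of length and GC trends ended the calls of NBL1 (adjusted p 0.0759) and CRIM1 (0.299).

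Of 10 tested receptors and co-receptors, 3 were called higher and 1 lower. The type I and type II BMP receptor genes BMPR1A (log2 fold change 0.25, adjusted p 0.00185) and BMPR2 (0.20, adjusted p 0.00349) rose. ACVRL1, a type I receptor gene best known from endothelium, rose at a low level, from 3.06 ± 0.159 to 4.25 ± 0.821 TPM (0.37, adjusted p 0.0231). In CPM its groups overlapped, with sgKCNQ3 replicate 2 at 7.67 and NC replicate 1 at 7.84. RGMB, a BMP co-receptor gene, fell (-0.20, adjusted p 0.0119). The calls of BMPR1A (0.11, adjusted p 0.165) and BMPR2 (0.04, adjusted p 0.522) ended with length and GC trends removed. ACVRL1 was not called without NC replicate 2 (adjusted p 0.0613), NC replicate 3 (0.0965), sgKCNQ3 replicate 1 (0.135) or sgKCNQ3 replicate 3 (0.0865), nor RGMB without sgKCNQ3 replicate 1 (0.120). DESeq2 called neither ACVRL1 (adjusted p 0.107) nor RGMB (0.0564). On log2(TPM + 1) and log2(TPM + 0.1), RGMB stood at -0.10 and -0.11 and was not called (limma adjusted p 0.236 and 0.235). ACVR1, the receptor gene with the highest level, passed no threshold (29.3 ± 1.03 and 31.6 ± 1.61 TPM, adjusted p 0.690).

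Of the 6 SMADs that carry the signal, 4 were called higher and none lower. SMAD3, the activin branch member with the highest level, rose from 79.3 ± 1.96 to 95.9 ± 5.39 TPM (log2 fold change 0.19, adjusted p 5.23e-04). The BMP branch genes SMAD1 (0.24, adjusted p 0.0231) and SMAD5 (0.14, adjusted p 0.0178) and the shared partner SMAD4 (0.18, adjusted p 0.00795) rose too. In CPM the groups of SMAD1 overlapped. With length and GC trends removed, SMAD3 stood at 0.12 and was still called (adjusted p 0.0129), while SMAD4 (0.04, adjusted p 0.562) and SMAD5 (0.003, adjusted p 0.968) were not. SMAD1 lost its call without NC replicate 2 (adjusted p 0.111), NC replicate 3 (0.0717) or sgKCNQ3 replicate 2 (0.116), and with the replicate number as a block (0.0585). SMAD5 lost it without NC replicate 3 (0.0827) or sgKCNQ3 replicate 3 (0.0665), and SMAD4 without sgKCNQ3 replicate 1 (0.0521). DESeq2 called neither SMAD1 (adjusted p 0.0848) nor SMAD5 (0.0522).

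Of 17 intracellular modulators, 3 were called higher and 3 lower. TOB1, an antiproliferative gene whose product binds SMADs, rose from 25.3 ± 2.00 to 34.9 ± 0.676 TPM (log2 fold change 0.40, adjusted p 2.91e-05). ZFYVE16, an endosomal SMAD anchor gene (0.44, adjusted p 7.49e-05), and the ubiquitin ligase gene WWP1 (0.31, adjusted p 0.00168) rose, and the ubiquitin ligase gene NEDD4L fell (-0.32, adjusted p 2.25e-06). The SMAD co-repressor genes TGIF1 (-0.17, adjusted p 0.0154) and SKIL (-0.17, adjusted p 0.0444) were called lower by small amounts. TGIF1 lost its call without NC replicate 3 (adjusted p 0.101) or sgKCNQ3 replicate 1 (0.0538), with library size alone (0.0582) and in DESeq2 (0.0726). On log2(TPM + 1) and log2(TPM + 0.1) it stood at -0.085 and -0.087 (limma adjusted p 0.206 and 0.205). SKIL lost its call in 13 of 17 alternatives: without NC replicate 1 (0.159), NC replicate 3 (0.182), or sgKCNQ3 replicate 1 (0.132), 2 (0.0981) or 3 (0.0578), with RLE scaling (0.0522), upper quartile scaling (0.0790) or library size alone (0.123), with the replicate number as a block (0.0579), in DESeq2 (0.166), in limma-voom (0.0537) and on both TPM scales. On log2(TPM + 1) it stood at -0.091 (limma adjusted p 0.364) and on log2(TPM + 0.1) at -0.10 (0.365). With length and GC trends removed it stood at -0.32 (6.44e-05). PMEPA1, a feedback inhibitor of SMAD3 signalling, was not called on TMM-scaled counts (log2 fold change 0.04, adjusted p 0.371). It held 186 ± 1.49 and 204 ± 5.58 TPM, and by limma was called higher on log2(TPM + 1) (0.13, adjusted p 0.0331) and log2(TPM + 0.1) (0.13, 0.0328). FKBP1A passed no threshold on TMM-scaled counts (adjusted p 0.129).

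Of 5 tested BMP target genes beside the members, 2 were called higher. ATOH8, a transcription factor gene, rose from 1.26 ± 0.301 to 2.22 ± 0.335 TPM (log2 fold change 0.68, adjusted p 8.09e-04), at a low level. RUNX2 rose from 5.36 ± 0.345 to 6.77 ± 0.231 TPM (0.25, adjusted p 0.0123), and was not called without NC replicate 3 (adjusted p 0.0837), with length and GC trends removed (0.0848) or in DESeq2 (0.0663). MSX1 (11.6 ± 0.817 and 12.3 ± 1.15 TPM, adjusted p 0.985) and MSX2 (6.10 ± 0.512 and 6.91 ± 1.02 TPM, adjusted p 0.571) passed no threshold. ID4, the remaining ID gene, was too low to test, at 0.03, 0.05 and 0.03 TPM in NC and 0.11, 0.06 and 0.11 in sgKCNQ3. Nothing is read from values this low.

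Of the 3 E protein genes, whose products ID proteins bind, TCF12 rose from 27.1 ± 0.0872 to 33.8 ± 1.22 TPM (log2 fold change 0.22, adjusted p 3.48e-04). With length and GC trends removed it stood at 0.11 (adjusted p 0.0275). TCF4 was called higher at under 1 TPM (0.48, adjusted p 0.0339), and not without NC replicate 2 (adjusted p 0.112), NC replicate 3 (0.0856) or sgKCNQ3 replicate 1 (0.146), nor with length and GC trends removed (0.147) or in DESeq2 (0.193). TCF3, the E protein gene with the highest level, passed no threshold (35.5 ± 2.01 and 38.2 ± 1.12 TPM, adjusted p 0.700).

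**Figure D3:**
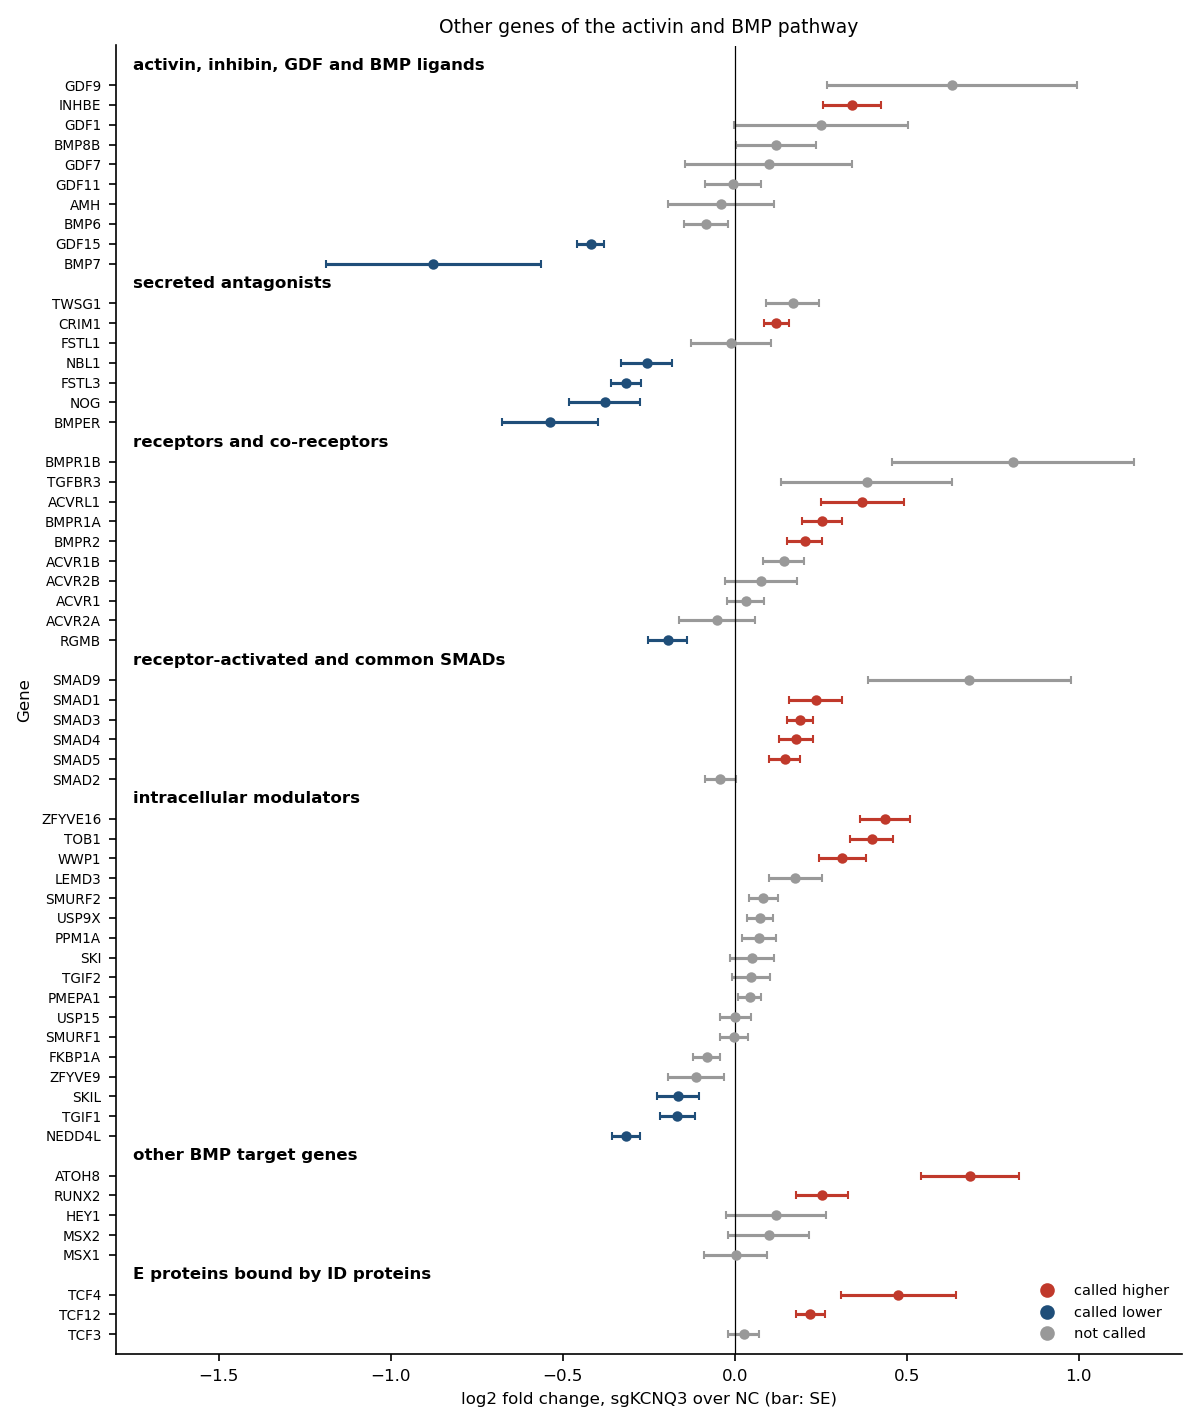
log2 fold change of sgKCNQ3 over NC (horizontal axis, bars SE) for the 58 tested pathway genes beside the 10 described above, grouped by role, red where called higher, blue where called lower and grey where not called at an edgeR adjusted p of 0.05. Of the secreted antagonists 4 of 7 were called lower, and of the signal-carrying SMADs 4 of 6 were called higher. Over all tested genes, 15.1% were called lower and 14% higher. In DESeq2, NOG, NBL1, BMPER, SMAD1 and SMAD5 were not called. With length and GC trends removed, NBL1, SMAD4 and SMAD5 were not called.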

How the data were processed

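RBE cells gave 6 libraries of poly(A)-enriched RNA, grouped and numbered by their titles. The authors deposited estimated counts per gene (expected counts, not normalized, per the file headers) beside TPM and FPKM, which the authors had scaled to transcript length and depth. The submitters' processing notes name GRCh38.p13 as the build. The sources used here do not name the aligner, the counter or its strand setting. The other 14 value columns were not used.

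Counts were rounded, filtered with filterByExpr (minimum count 10), which kept 12565 genes and removed 3635, scaled by TMM and compared by robust quasi-likelihood F tests in edgeR 4.0.16 (R 4.3.3). P-values were adjusted by Benjamini-Hochberg over all 12565 genes, with a cutoff of 0.05. The SE is the fold change divided by the square root of F. With 3 libraries against 3, no exact permutation test of a gene could go below 0.1. The procedure was tested on simulated counts. The members and lists were chosen with earlier results of these data known. Named pathway genes are the called genes of each list (up to 6) and its 2 highest in NC TPM.

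Alternatives were RLE, upper quartile and no scaling beyond library size, DESeq2 1.42.0, limma 3.58.1 (voom, and trend on log2(TPM + 1) and log2(TPM + 0.1)), no filter, a filter of 2 CPM in 3 libraries, a block on the replicate number, each library left out, and removal of each library's trend over length and GC (splines with 5 degrees of freedom, GENCODE release 29 transcripts). DESeq2 was run without filterByExpr, on 16185 genes. Matplotlib 3.10.9 drew the figures.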

Additional observations from a re-analysis of the deposited data

How the results depend on the processing

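The 10 genes were recomputed under 17 alternatives. FST, INHBA, INHBB, BMP4, ID1, ID2, ID3, SMAD6 and BAMBI had the same sign in all 17, with FST between -1.36 and -0.97 and INHBA between -0.79 and -0.50 on the log2 scale. SMAD7 had the same sign in 15 and was positive on both TPM scales. Of the 26 called pathway genes, 10 kept their call in all 17 alternatives (GDF15, INHBE, FSTL3, SMAD3, NEDD4L, TOB1, ZFYVE16, WWP1, ATOH8 and TCF12), 13 lost it when at least 1 library was left out, and 12 lost it in DESeq2.

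DESeq2 called 1111 genes higher and 1211 lower, against 1763 and 1895, and 3 pathway genes lower, against 10. It was run on 16185 genes, without the filter on low counts, against 12565, so the gene set differed as well as the method. On TPM, 613 genes (pseudocount 1) and 610 (pseudocount 0.1) were called lower, and 4 pathway genes lower on each. With length and GC trends removed, 9 pathway genes were called higher, against 16. With 1 library left out, 1287 to 1710 genes were called higher and 1343 to 1761 lower, and among pathway genes 11 to 17 higher and 6 to 9 lower. In FPKM, 1 pair of neighbours in the order of NC levels overlapped, against 0 in TPM. Among the pathway genes recomputed, which were the called ones and the 2 with the highest NC level in each list, signs turned only for uncalled genes: BMP6 on TPM (0.00464 and 0.00497), and with 1 library left out ACVR1 (-3.51e-05 to 0.0647), MSX1 (-0.0454 to 0.0681) and TCF3 (-0.0116 to 0.0551). The cause was not tested.

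With the replicate number as a block, 1520 genes were called higher and 1616 lower, and 15 and 8 pathway genes. BMP7 (adjusted p 0.0618), SMAD1 (0.0585) and SKIL (0.0579) lost their call. Same-numbered libraries did not deviate together (correlations 0.01, -0.10 and 0.008), so the numbers were not taken as pairs. No NC library correlated best with the sgKCNQ3 library of its own number. FST, BMP4 and the low pathway genes rest on few counts, which limits the precision of their values.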
